A study of Sorghum bicolor with 6 samples.

Results

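The 100 gene models with the most counts in control sorghum leaves, less 5 that the rule sets aside, form a list of 95 genes out of the 34129 gene models measured. They were chosen by their level alone: the mean over the 3 empty vector libraries of CPM, which is a gene's count divided by the library total and multiplied by 1000000. The rule leaves out 6 identifiers, of which Sobic.010G160700, Sobic.009G132900, Sobic.003G036200, Sobic.005G042000 and Sobic.003G040900 stood among the first 100, while Sobic.007G166300 stood at rank 576. The libraries come from leaves of 4-week-old Sorghum bicolor, 3 from plants that overexpress SbGhd7 (SbGhd7 OE) and 3 from plants that carry an empty vector. No label used here names the promoter of the transgene, the number of transformation events, the sorghum line or the hour of harvest. It is also not stated that each library is a different plant, so p-values measure the spread between libraries, which may be partly technical.

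In a leaf, a small set of nuclear genes supplies a large share of all messenger RNA. In grasses such as sorghum this set is known to be rich in genes for light harvesting, carbon fixation and protein synthesis, and many of its members follow the time of day. Ghd7 was described in rice as a repressor of flowering under long days, and the sorghum gene SbGhd7 is a regulator of the floral transition that acts through other genes. The comparison asks how the most abundant leaf messages stand when this regulator is overexpressed. The files give identifiers with no gene names, and the reference table used here matched none of them, so the genes are given by identifier, without a name or a role, and the leaf label could not be checked against markers that these tables annotate. Identifiers are printed without their ending v3.2. Counts also rise with transcript length, and lengths were not used here, so a rank below means a rank by counts and does not compare molecules between genes.

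The libraries summed to between 27844391 and 35830080 counts. Sobic.006G004400, the identifier known for SbGhd7 from general knowledge and not from the files, stood at 335 to 731 CPM in SbGhd7 OE and 0.977 to 1.99 CPM in empty vector, so all 6 libraries matched their labels. Empty vector replicates 1 and 2 were the closest pair of libraries, with a median chi-square per gene of 1.98, and the remaining pairs within a group reached 4.19 to 7.77. Whether those libraries are repeats of one sample was not tested, and empty vector replicate 3 stood further from both. All 95 genes passed the filter on low counts, and the lowest count of any of them in any library was 457.

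The listed genes held a smaller share of all counts in SbGhd7 OE leaves. They made up 19.3%, 17.5% and 15.9% of the counts in SbGhd7 OE replicates 1 to 3, against 23.6%, 23.6% and 23.0% in empty vector replicates 1 to 3. The groups did not overlap, and the SbGhd7 OE libraries were further apart from each other than the empty vector ones. The means were 17.5 ± 1.69% in SbGhd7 OE and 23.4 ± 0.386% in empty vector (SD, n = 3 each). The 95% Wilson interval of each share was at most 0.0152 percentage points to either side and covers counting error only. Because the empty vector level chose the list, this difference was not tested. When the list was instead chosen from 2 empty vector libraries and read in the one not used, its share was 17.4% in SbGhd7 OE against 23.5% in empty vector replicate 1, 17.4% in SbGhd7 OE against 23.6% in empty vector replicate 2, and 17.7% in SbGhd7 OE against 22.8% in empty vector replicate 3. These lists too were chosen by level in the empty vector group, so these differences were not tested either. In these bulk leaf samples, fewer cells of a type and less RNA per cell cannot be told apart.

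The lower share was a balance of losses and gains. The mean CPM was lower in SbGhd7 OE for 66 of the 95 genes and higher for 29. The lower genes gave up 8.79 percentage points of all counts and the higher ones gained 2.93, a net change of -5.86 points. Losses of Sobic.003G107300, Sobic.001G141300 and Sobic.004G011566 summed to 2.36 points. The largest gain, 0.460 points, was that of Sobic.001G519800. The 10 listed genes with the highest empty vector level held 3.74 ± 0.324% of counts in SbGhd7 OE and 6.32 ± 0.285% in empty vector (SD, n = 3 each), and the other listed genes held 13.8 ± 1.38% in SbGhd7 OE and 17.1 ± 0.101% in empty vector. The 5 genes set aside held 3.53 ± 0.522% in SbGhd7 OE and 1.92 ± 0.111% in empty vector.

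**Figure D1:**
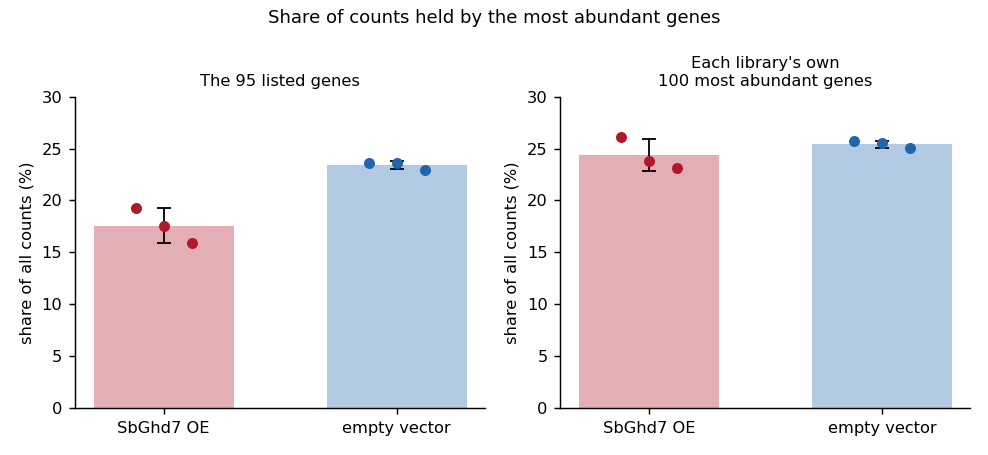
Share of all counts (%) in each library (points), with the group mean (bars) and SD (error bars), for the 95 listed genes (left panel) and for the 100 genes most abundant in each library itself (right panel). The listed genes held 15.9% to 19.3% in SbGhd7 OE and 23.0% to 23.6% in empty vector, while the libraries' own lists overlapped between the groups. No genes were set aside from the own lists.

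A list chosen by each library for itself gave another picture than the control list. When each library chose its own 100 most abundant genes, these held 26.1%, 23.8% and 23.2% of counts in SbGhd7 OE and 25.7%, 25.5% and 25.1% in empty vector. The group means differed by -1.09 percentage points, and an exact two-sided permutation test gave p = 0.4, where 3 against 3 libraries cannot go below 0.1, so this design cannot show a difference at 0.05. The 10 most abundant genes of each library held 8.18%, 6.88% and 7.62% of counts in SbGhd7 OE and 6.78%, 6.69% and 6.36% in empty vector. For these the SbGhd7 OE libraries were all higher, with means of 7.56 ± 0.650% in SbGhd7 OE and 6.61 ± 0.222% in empty vector (SD, n = 3 each), and the difference was not tested. By mean CPM, Sobic.010G160700 and Sobic.009G132900, which were set aside, stood at ranks 1 and 2 in SbGhd7 OE and 18 and 3 in empty vector. The first 50% of all counts came from 742 to 901 genes in SbGhd7 OE and from 792 to 824 genes in empty vector. The 100 genes with the highest mean CPM in SbGhd7 OE shared 65 genes with the first 100 of empty vector. That SbGhd7 OE list held 24.2 ± 1.53% of counts in SbGhd7 OE and 21.0 ± 0.565% in empty vector (SD, n = 3 each), so a list chosen in either group held less in the other one.

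Ranks changed for most of the list. By mean CPM, 61 of the 95 genes were still among the first 100 in SbGhd7 OE, and 74 were among the first 200. Single SbGhd7 OE libraries held 62, 62 and 61 of the 95 among their own first 100, against 91, 92 and 87 in the empty vector libraries that had chosen them. With the list chosen without one empty vector library, 85 to 90 genes were among the first 100 of that library and 60 to 62 among those of SbGhd7 OE. Of the 95, 34 stood nearer the top in SbGhd7 OE, 59 stood lower and 2 had the same rank. Moves of 10 places or fewer were found for 29 genes, and falls of over 100 places for 25. There were 8 genes beyond rank 1000 in SbGhd7 OE, and 1 of them, Sobic.009G119200, stood at rank 8989, against 76 in empty vector. A choice by rank in empty vector favours falls in SbGhd7 OE, so these moves are a description. The first 100 genes of SbGhd7 OE had a median rank of 66 in empty vector, with 16 beyond rank 200 and 5 beyond rank 1000. The first 100 of empty vector, none set aside, had a median rank of 58 in SbGhd7 OE, with 21 beyond rank 200 and 8 beyond rank 1000. Across the 95 genes, the Spearman correlation of CPM between libraries was 0.886 to 0.985 within a group and 0.453 to 0.553 between groups, a description over genes that share their libraries.

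**Figure D2:**
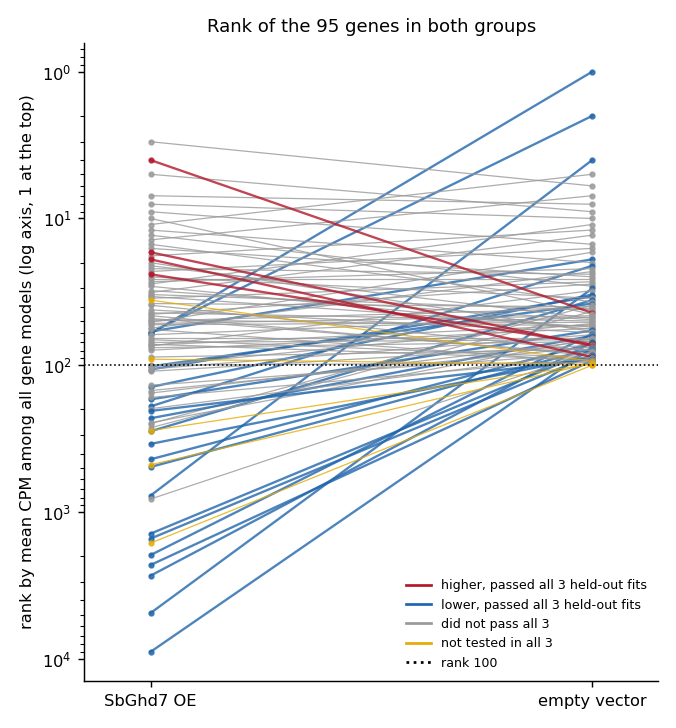
Rank by mean CPM among all gene models (log axis, rank 1 at the top) of each of the 95 genes in SbGhd7 OE (left) and empty vector (right), joined by a line, with colours for the held-out calls. All genes lie above the dotted line at rank 100 or on it in empty vector, and 34 lie below it in SbGhd7 OE.

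Gene by gene, more of the listed genes were lower than higher in SbGhd7 OE, in a list chosen by the empty vector level. In the fit of all 6 libraries (edgeR's quasi-likelihood test, adjusted p under 0.05 over 20820 genes), 46 of the 95 were called lower and 18 higher, and 31 were not called. Over all tested genes 25.3% were called lower and 28.0% higher. Since the empty vector values of this fit chose the list, nothing is read from that comparison. The number called higher was 11 without SbGhd7 OE replicate 1, 11 without empty vector replicate 1, and 10 without empty vector replicate 2. For those runs the share of all tested genes called is not given, so nothing about the list is read from them. The 3 SbGhd7 OE values lay wholly below the empty vector ones for 50 of the 95 genes (34.3% of all tested genes) and wholly above them for 19 (29.9% of all tested genes), where again nothing is read from the comparison. The median log2 fold change was -0.44 for the list and -0.00 for all tested genes. By the fit, 33 listed genes (34.7%, against 13.5% of all tested genes) were at least 2-fold lower and 6 (6.3%, against 17.9%) at least 2-fold higher. These values come from the same fit, so nothing is read from their comparison either.

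In each of 3 held-out fits, 1 empty vector library was set against the 3 SbGhd7 OE libraries, for the 95 genes that the other 2 empty vector libraries chose. Within such a fit the tested values had no part in the choice. The lone library is assumed there to vary like the SbGhd7 OE libraries, and the 3 fits share those libraries. The choice was still made by level in the empty vector group, so genes higher in that group were favoured. An excess of lower calls can follow from this choice alone, and nothing is read from it. Against empty vector replicate 1, 28 of 95 genes were lower (10.6% of all genes of that fit) and 4 higher (13.9%). Against replicate 2, 28 were lower (10%) and 5 higher (13.7%), and against replicate 3, 26 were lower (9.84%) and 6 higher (13.1%; edgeR, adjusted p under 0.05 in each). Of the 95 listed genes, 90 were chosen by every pair of empty vector libraries, and 22 of them passed as lower and 4 as higher in all 3 fits. By the same rule 7.15% of all tested genes were lower and 10.3% higher. Since these 90 had to be chosen by every pair, each empty vector library had a part in choosing them through the other pairs, so the joint counts are a description. In what follows, "fell" and "rose" are used only of genes that passed all 3 held-out fits. Fewer genes rose when any 1 SbGhd7 OE library was left out. For those runs the share of all tested genes is not given, so nothing about the list is read from them.

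**Figure D3:**
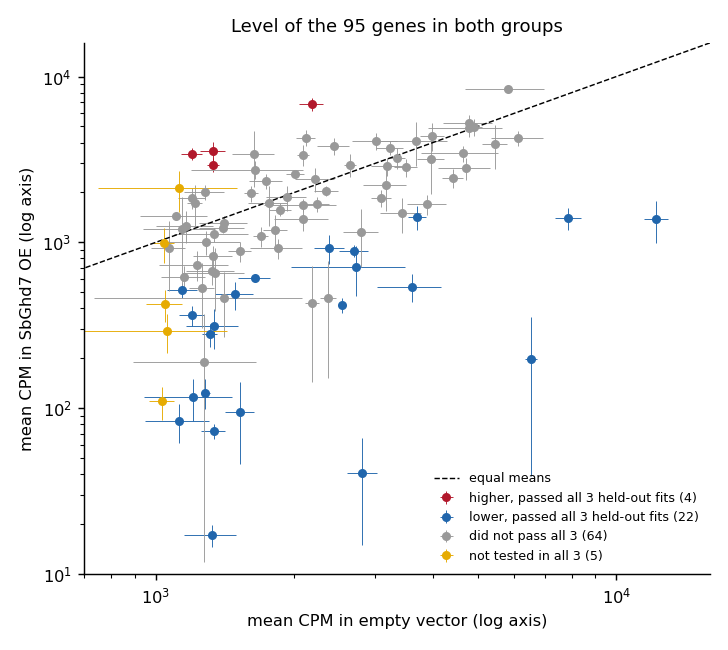
Mean CPM in SbGhd7 OE (vertical log axis) against mean CPM in empty vector (horizontal log axis) for the 95 genes, with SD bars (n = 3 each) and the line of equal means. The 22 genes that fell lie below the line, down to 17.3 CPM in SbGhd7 OE, and the 4 genes that rose reach 6784 CPM.

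Of the 10 genes that fell most, 5 averaged under 100 CPM in SbGhd7 OE leaves. Sobic.009G119200 had 17.0, 14.8 and 20.04 CPM in SbGhd7 OE, against 1440.3, 1403 and 1125 CPM in empty vector. Its mean was 76.5 times higher in empty vector (log2 fold change -6.19, SE 0.213; held-out adjusted p 0.00049 to 0.00074). Its SbGhd7 OE values lay close together and far below the empty vector ones, and it made the longest fall in rank of the list. Sobic.001G344500 had 66.9, 15.8 and 38.8 CPM in SbGhd7 OE, against 3035, 2765 and 2629.6 CPM in empty vector (log2 fold change -6.03, SE 0.576; held-out adjusted p 0.0062 to 0.0071). Its mean was 69.4 times higher in empty vector, and its SbGhd7 OE libraries differed from each other several-fold. Without SbGhd7 OE replicate 3 its highest held-out adjusted p was 0.0558, so that it did not pass.

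Sobic.004G011566, at rank 4 in empty vector, was the most abundant control gene to leave the first 500. It had 379.9, 114 and 98.4 CPM in SbGhd7 OE, against 6391, 6466 and 6747 CPM in empty vector (log2 fold change -4.95, SE 0.616; held-out adjusted p 0.015 to 0.016). Its SbGhd7 OE replicate 1 was more than 3-fold above replicates 2 and 3. Every SbGhd7 OE value lay below every empty vector value, as the choice of these genes required. Sobic.001G078200 had 80.8, 72.7 and 64.9 CPM in SbGhd7 OE, against 1282, 1429 and 1300.3 CPM in empty vector (log2 fold change -4.12, SE 0.173; held-out adjusted p 0.00072 to 0.0011). In contrast to Sobic.004G011566, its SbGhd7 OE libraries were alike, with a coefficient of variation of 10.98%, against 80.2% for Sobic.004G011566. Sobic.006G269200 had 145, 47.2 and 93.2 CPM in SbGhd7 OE, against 1602, 1579 and 1397 CPM in empty vector (log2 fold change -3.92, SE 0.417; held-out adjusted p 0.0085 to 0.0096). The order of its 3 SbGhd7 OE libraries was that of Sobic.001G344500, with replicate 1 highest and replicate 2 lowest. Its highest held-out adjusted p without SbGhd7 OE replicate 3 was 0.0563, which did not pass.

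In 3 more genes that fell, the mean CPM was 13.5, 10.3 and 10.3 times higher in empty vector. Sobic.004G325900 had 89.9, 59.5 and 102 CPM in SbGhd7 OE, against 1248, 1211 and 921 CPM in empty vector (log2 fold change -3.68, SE 0.251; held-out adjusted p 0.0011 to 0.0016). Sobic.003G013600 had 148, 127 and 97.3 CPM in SbGhd7 OE, against 1253, 1280.4 and 1311 CPM in empty vector (log2 fold change -3.29, SE 0.202; held-out adjusted p 0.0013 to 0.0015). Sobic.003G284300 had 148, 81.5 and 121 CPM in SbGhd7 OE, against 1403, 1297 and 911 CPM in empty vector (log2 fold change -3.29, SE 0.287; held-out adjusted p 0.0016 to 0.0032). For Sobic.004G325900 and Sobic.003G284300 empty vector replicate 3 was the lowest of its group, yet it lay far above all SbGhd7 OE libraries. For Sobic.003G013600 the 3 empty vector libraries were nearly equal, with a coefficient of variation of 2.27%.

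The gene with the highest control level of all, Sobic.003G107300, was also among those that fell most. It had 1304, 1824 and 1039 CPM in SbGhd7 OE, against 11367, 12569 and 12678 CPM in empty vector. Its mean was 8.79 times higher in empty vector (log2 fold change -3.07, SE 0.241; held-out adjusted p 0.0025 to 0.0028), and it stood at rank 61 in SbGhd7 OE and 1 in empty vector. Despite the fall it stayed above 1000 CPM in every SbGhd7 OE library. Sobic.001G111500, the last of the 10, had 639, 431 and 555 CPM in SbGhd7 OE, against 3378, 3168 and 4232 CPM in empty vector (log2 fold change -2.65, SE 0.220; held-out adjusted p 0.0022 to 0.0032). The other genes that fell had log2 fold changes between -2.52 and -1.08. All genes that fell had groups that did not overlap, against 34.3% of all tested genes that lay wholly lower. Passing every held-out fit nearly requires this, so nothing is read from it.

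**Figure D4:**
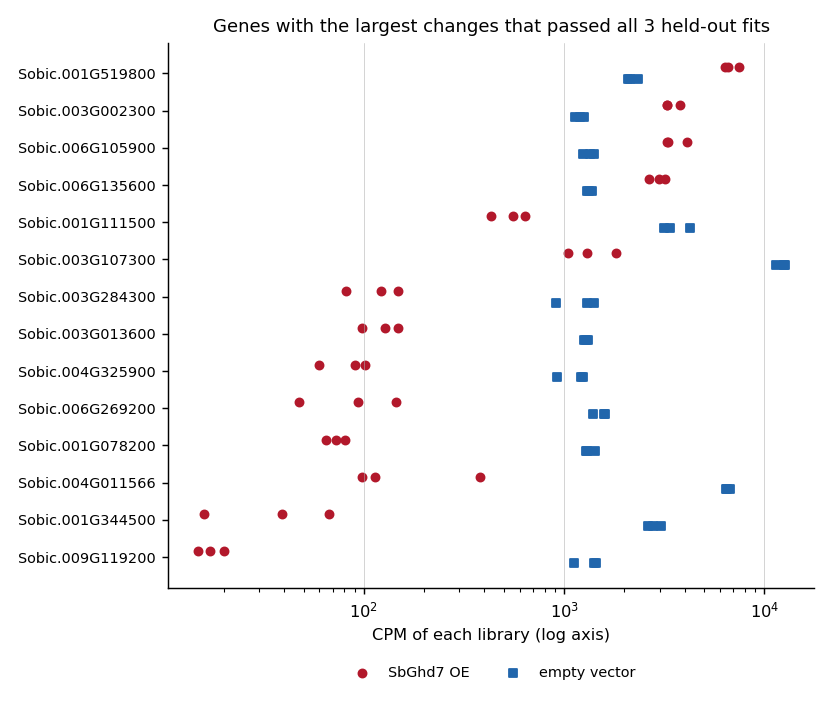
CPM in each library (log axis) of the 4 listed genes that rose and the 10 that fell most, with SbGhd7 OE as circles drawn above empty vector as squares for each identifier. Genes were shown only if their groups did not overlap, so the gap between groups was set by the choice. The spread between SbGhd7 OE libraries is widest for Sobic.004G011566 and Sobic.001G344500.

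The 4 genes that rose changed less in fold than the 10 described above. Sobic.001G519800 had 7455, 6358 and 6539.9 CPM in SbGhd7 OE, against 2093, 2119 and 2333 CPM in empty vector and stood at rank 4 in SbGhd7 OE and 44 in empty vector. Its mean was 3.11 times higher in SbGhd7 OE (log2 fold change 1.71, SE 0.170; held-out adjusted p 0.016 to 0.021). No listed gene had a larger fold rise, and no SbGhd7 OE value came near an empty vector value. Sobic.003G002300 had 3259, 3767 and 3256 CPM in SbGhd7 OE, against 1259, 1198 and 1132 CPM in empty vector (log2 fold change 1.59, SE 0.152; held-out adjusted p 0.013 to 0.018). It stood at rank 19 in SbGhd7 OE and 88 in empty vector, and it passed with any 1 SbGhd7 OE library left out. Sobic.006G105900 had 4116, 3281 and 3265 CPM in SbGhd7 OE, against 1408, 1342 and 1241 CPM in empty vector (log2 fold change 1.49, SE 0.179; held-out adjusted p 0.022 to 0.031). Sobic.006G135600 had 3183, 2639 and 2982 CPM in SbGhd7 OE, against 1326, 1301 and 1378 CPM in empty vector (log2 fold change 1.21, SE 0.158; held-out adjusted p 0.036 to 0.042). The groups were apart for both, as the choice of these genes required. Without SbGhd7 OE replicate 2 the highest held-out adjusted p was 0.0508 for Sobic.001G519800, 0.0531 for Sobic.006G105900 and 0.0666 for Sobic.006G135600, so these did not pass. Without replicate 3 it was 0.0614 for Sobic.006G105900 and 0.087 for Sobic.006G135600, and without replicate 1 it was 0.0583 for Sobic.006G135600.

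The head of the control list changed in part. Of the 10 listed genes with the highest control level, 3 fell: Sobic.003G107300, Sobic.004G011566 and Sobic.001G141300. Sobic.001G141300 had 1393, 1617 and 1189 CPM in SbGhd7 OE, against 8196, 8146 and 7267 CPM in empty vector (log2 fold change -2.42, SE 0.186; held-out adjusted p 0.0025 to 0.0036). The other 7 did not pass every held-out fit, and all 7 stood within the first 28 genes of SbGhd7 OE. Sobic.001G177000 had 8831, 7992 and 8253 CPM in SbGhd7 OE, against 6552, 6392 and 4509 CPM in empty vector, and with rank 3 it was the listed gene with the most counts in SbGhd7 OE. The 2 groups did not overlap, and the fit of all 6 libraries called it (log2 fold change 0.60, SE 0.201; adjusted p = 0.035), but the call was lost without any 1 library other than SbGhd7 OE replicate 2. Sobic.010G189300 had 3276, 2615 and 2497 CPM in SbGhd7 OE, against 5205, 4915 and 4028 CPM in empty vector (log2 fold change -0.68, SE 0.197; adjusted p = 0.019 in the fit of all 6 libraries, held-out adjusted p 0.097 to 0.31). Its groups did not overlap either, and its call was lost without SbGhd7 OE replicate 2 or 3 or empty vector replicate 1 or 2.

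The remaining 5 of these genes were called neither in the fit of all 6 libraries nor by the held-out rule. Sobic.007G136900 averaged 4271 ± 452 CPM in SbGhd7 OE and 6131 ± 799 CPM in empty vector (SD, n = 3 each), with groups that did not overlap (log2 fold change -0.45, SE 0.187; edgeR adjusted p = 0.074). It was called lower without SbGhd7 OE replicate 1 (adjusted p = 0.031), without empty vector replicate 3 (0.037), with library size alone (0.026) and in DESeq2 (0.015). Sobic.008G185900 averaged 3931 ± 1166 CPM in SbGhd7 OE and 5449 ± 334 CPM in empty vector. For it, SbGhd7 OE replicate 2 stood above the other two, at 5270.0 CPM, within the empty vector range, and without that library the gene was called lower (edgeR adjusted p = 0.02). Sobic.010G241000 averaged 4968 ± 563 CPM in SbGhd7 OE and 4919 ± 199 CPM in empty vector, Sobic.008G033200 averaged 5220.4 ± 623 CPM in SbGhd7 OE and 4796 ± 587 CPM in empty vector and Sobic.004G056900 averaged 4879 ± 541 CPM in SbGhd7 OE and 4779 ± 870.2 CPM in empty vector. These 3 genes, with ranks 8, 9 and 10 in empty vector, were at ranks 7, 5 and 8 in SbGhd7 OE. In all, 7 listed genes were among the first 10 of SbGhd7 OE. The others were Sobic.001G177000, Sobic.001G519800, Sobic.002G288300 and Sobic.004G078600. Sobic.002G288300 averaged 4384 ± 845 CPM in SbGhd7 OE and 3987 ± 247 CPM in empty vector, with overlapping groups. Sobic.004G078600 averaged 4281 ± 456 CPM in SbGhd7 OE and 2117 ± 100.3 CPM in empty vector (log2 fold change 1.09, SE 0.159), with no overlap, and missed the threshold in a held-out fit (adjusted p 0.044 to 0.06).

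Some listed genes had nearly equal levels in both groups, although the median of the list lay below 0. The 5 genes with a log2 fold change nearest 0 were Sobic.003G106500, Sobic.006G073500, Sobic.007G071500, Sobic.002G033900 and Sobic.002G329600, with log2 fold changes of -0.01, 0.03, 0.03, 0.04 and -0.04. Sobic.007G071500 had 3762, 3021 and 2904 CPM in SbGhd7 OE, against 3297, 3223 and 3490.3 CPM in empty vector, and its groups overlapped. Sobic.002G329600 had 1326, 1434 and 1151 CPM in SbGhd7 OE, against 1410.3, 1577 and 1239 CPM in empty vector and stood at rank 65 in both groups. A value that misses the threshold does not show that the level was equal: the SE of these 5 log2 fold changes was between 0.165 and 0.220, and each of the 5 changed sign under at least 1 alternative.

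The median coefficient of variation between replicates was larger in SbGhd7 OE. Over the 95 genes the coefficient of variation of CPM had a median of 15.3% in the SbGhd7 OE libraries, which the choice did not use, and of 8.04% in the empty vector libraries. The next 100 genes down the control list had medians of 14.97% in SbGhd7 OE and 8.66% in empty vector. Over the listed genes the median chi-square was 51.3 between empty vector replicates 1 and 2. It was 763 and 480 for these 2 against replicate 3, and 547 to 968 between SbGhd7 OE libraries. Whether the lower empty vector spread comes from the closeness of replicates 1 and 2 was not tested, and neither was the difference in spread. A coefficient of variation above 40% in SbGhd7 OE was found for 11 listed genes, with replicate 1 highest for 6 of them and replicate 2 for 5. SbGhd7 OE replicate 1 was the highest of its group for 63 of the 95 genes, and replicate 3 was the lowest for 56. The scaling factors of the fit (TMM) were 0.934, 0.997 and 0.997 for SbGhd7 OE replicates 1 to 3 and 1.02, 1.02 and 1.03 for empty vector replicates 1 to 3. The gene with the widest spread in SbGhd7 OE, Sobic.002G384400, had 124, 393 and 54.9 CPM in SbGhd7 OE, against 1484, 1494 and 833 CPM in empty vector. For it replicate 2 of SbGhd7 OE stood highest, replicate 3 of empty vector lowest, and the groups did not overlap. It was singled out after its values were seen, as were Sobic.010G273600, Sobic.K029900 and Sobic.010G177800 below.

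Sobic.010G273600 and Sobic.K029900 had almost the same profile in the 6 libraries. Sobic.010G273600 had 802, 199 and 382 CPM in SbGhd7 OE, against 2296, 2329 and 2474 CPM in empty vector. Sobic.K029900, whose identifier carries no chromosome number, had 753, 187 and 359 CPM in SbGhd7 OE, against 2133, 2148 and 2274 CPM in empty vector. The count of the first was between 1.06 and 1.09 times that of the second in every library, and no other pair of listed genes kept so constant a ratio. Whether reads were split between these 2 gene models was not tested, so their values may not be separate measurements. Sobic.010G177800 was the listed gene with the widest spread in empty vector, with 254, 642 and 495 CPM in SbGhd7 OE, against 1613, 1945 and 655 CPM in empty vector. Its empty vector replicate 3 lay just above the highest SbGhd7 OE value.

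Position and abundance were compared as descriptions. By their identifiers, 17 of the 95 genes (17.9%) lie on chromosome 1, which holds 16.8% of all gene models. Chromosome 2 held 15 (15.8%, against 12.9%) and chromosome 3 held 13 (13.7%, against 13.7%). Chromosome 7 held 2 of the 95, against 6.95% of all gene models, and chromosome 8 held 9 (9.47%, against 5.94%). There were 3 pairs of listed genes whose identifier numbers differ by at most 1000 on one chromosome. In the pair Sobic.005G085600 and Sobic.005G085200 both means were lower in SbGhd7 OE, at 421 and 110.2 CPM, against 2541 and 1031 CPM in empty vector. The other pairs were Sobic.003G107300 with Sobic.003G106500, where the first fell and the second had a log2 fold change of -0.01, and Sobic.008G063500 with Sobic.008G063100, which had log2 fold changes of -1.12 and -0.44.

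The lower end of the list was not a sharp border. The last genes inside were Sobic.001G005500, Sobic.003G106500 and Sobic.005G085200, with 1047, 1043 and 1031 CPM in empty vector. The first ones outside were Sobic.002G390500, Sobic.006G264900 and Sobic.001G363100, with 1029, 1011 and 1010.0 CPM. These values differed by less than the spread of the same 6 genes between empty vector libraries, which was 55.01 to 335 CPM (SD, n = 3). Just outside, Sobic.001G363100 averaged 20.9 CPM in SbGhd7 OE. In the fit of all 6 libraries, 33.3%, 43.2% and 55.1% of the listed genes ranked 1 to 10, 11 to 50 and 51 to 100 were called lower. So were 50 of the next 100 genes and 135 of the 300 after those. The median log2 fold changes of these 5 bands were -0.40, -0.32, -0.61, -0.50 and -0.40. Every band was chosen by the empty vector level, so these shares are a description and nothing is read from them.

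**Figure D5:**
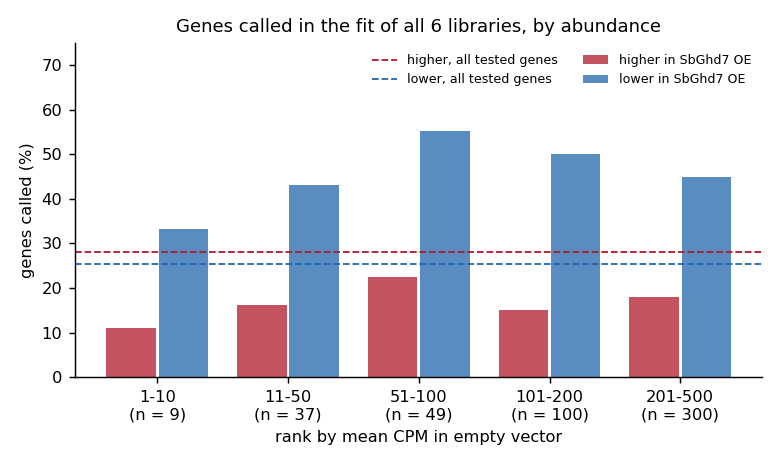
Percentage of genes called higher or lower in SbGhd7 OE in the fit of all 6 libraries (bars) by rank of mean CPM in empty vector, with the same percentage over all tested genes (dashed lines). In each band from rank 1 to rank 500 more genes were called lower (33.3% to 55.1%) than higher (11.1% to 22.4%). Over all tested genes 25.3% were called lower and 28.0% higher. The bands were chosen by the empty vector level, so nothing is read from the difference.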

How the data were processed

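Leaf RNA of 6 libraries was measured, 3 of SbGhd7 OE and 3 of empty vector plants, with groups and replicate numbers from the sample titles. Per the labels' protocols, TRIzol RNA was cleared of DNA and libraries came from an NEBNext Ultra kit. Per the submitters' processing notes, HISAT2 (2.2.1), StringTie (2.2.1) and DESeq2 (2.11.40.7) were used. What each tool did is not stated, nor are the build, the use of strand or any filter, so overlapping, antisense and near-identical genes may share reads. The authors deposited 1 whole number per gene model and library, not scaled between libraries, which was treated as an estimated count. The value 2 was 2.91 to 3.57 times as frequent as the value 1, so a value may not be 1 fragment, and intervals cover counting error only.

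CPM, ranks and shares were computed from the counts as deposited. The fits used filterByExpr (20820 of 26611 genes with a count), TMM scaling and edgeR 4.0.16 (R 4.3.3; quasi-likelihood F-test, robust, group only, Benjamini-Hochberg adjustment at 0.05 over all tested genes). The code was also run on simulated data with known changes. That simulation had no choice of a list by level, its outcome is not given here, and nothing is read from it. The held-out fits tested 21810 genes in common and had 2 residual degrees of freedom, against 4 in the full fit. The SE is the absolute log2 fold change divided by the square root of F. DESeq2 1.42.0 was an alternative. The rule for named genes took the 10 listed genes with the highest control level, up to 10 each with the largest rise and fall among those that passed every held-out fit without overlap, the 5 nearest 0, the 3 on each side of the border, and those in the first 10 of SbGhd7 OE. The list, its rule and the tests were chosen with earlier results of these data known. None of the 34129 identifiers matched the reference table (32945 genes), also not as locus tags, so gene groups by product, marker lists by product and levels per kilobase could not be built. The labels give no batch.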

Additional observations from a re-analysis of the deposited data

How the results depend on the processing

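Of the 64 genes called in the fit of all 6 libraries, none changed direction under any alternative run. The count of 18 higher calls was 9 at an adjusted p under 0.01, 6 with a log2 fold change of at least 1, and 10 with empty vector replicates 1 and 2 summed, a setting chosen after seeing the data, as were the counts of each held-out fit on its own. Leaving out 1 library gave 10 to 16 higher and 39 to 46 lower calls. Library size alone, no filter, RLE factors and DESeq2 gave 16 to 19 higher and 45 to 48 lower calls. With the replicate number as a block, 13 were higher and 43 lower, and 56 of the 64 calls were kept. Same-numbered libraries share only a number. Their deviations from the group means correlated at -0.164 to -0.006, and no library correlated best with its own number. Why these counts moved was not tested. The held-out counts of 4 higher and 22 lower genes were 0 and 13 at an adjusted p under 0.01 in edgeR, and 5 and 31 at an unadjusted p under 0.05. Leaving out 1 SbGhd7 OE library gave 1 to 3 and 17 to 27. DESeq2 was not run on these fits. For the alternative settings the share of all tested genes called is not given, so nothing about the listed genes is read from these counts.

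The share of counts moved with the length of the list. It was 12.1% in SbGhd7 OE and 16.8% in empty vector for the first 50 genes, 23.2% in SbGhd7 OE and 30.6% in empty vector for the first 200, and 21.1% in SbGhd7 OE and 25.3% in empty vector for all 100 genes with none set aside. The genes still in a list of equal length in SbGhd7 OE were 29 for the first 50 and 120 for the first 200. With 1 SbGhd7 OE library left out, the mean share in the remaining SbGhd7 OE libraries was 16.7% to 18.4%. A list chosen without 1 empty vector library held 22.8% to 23.6% of the counts of that library. With 1 library left out, 60 to 62 genes stayed in the first 100 of SbGhd7 OE. With all 100 genes and none set aside, 65 did. The difference between the libraries' own lists lay between -1.97 and -0.51 points when 1 library was left out. Levels per kilobase were not run, because no lengths matched the identifiers. Depth was high for these genes, so the spread between libraries and not the number of counts limits the comparisons.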
